A study of Mus musculus with 24 samples.

Results

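The PGC-1, ERR and PPAR metabolic regulators are 10 genes, taken by symbol from the 14912 genes of the table: Ppargc1a, Ppargc1b, Esrra, Esrrb, Esrrg, Ppara, Ppard, Perm1, Tfam and Nrf1. All 10 were in the table, and all 10 passed the filter on low values (a mean of at least 0.1 fragments per kilobase of transcript scaled to the mapped reads, FPKM). The bulk RNA came, by the sample labels and the methods, from left ventricles of male wild-type C57BL/6J mice whose hearts had been flushed with saline, although the extraction text of the labels names CRC cells. The control group was infused with saline and the hypertensive-LVH group (left ventricular hypertrophy) with angiotensin II (ANG II) at 1500 ng/kg/min, both for 7 days from subcutaneous osmotic mini-pumps. There were 12 samples of each group; the labels do not say whether each came from its own mouse, and the methods call them biological replicates. Further samples of the study were not analysed here.

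PGC-1α (Ppargc1a) and PGC-1β (Ppargc1b) are co-activators without DNA binding of their own, which dock onto nuclear receptors and other factors and raise the transcription of genes for mitochondria and fuel oxidation. The estrogen-related receptors (ERR) are orphan receptors that bind respiratory chain, citrate cycle and contractile genes, while the PPAR receptors are activated by lipids and bind genes of fatty acid uptake and oxidation. Heart muscle draws most of its ATP from fatty acid oxidation, and its mitochondria depend on these regulators.

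The level of Esrra, which encodes ERRα, was lower in the hypertensive-LVH group, and so was the level of Perm1, a muscle-restricted protein induced by PGC-1 and ERR. The other 8 genes did not pass the test. By limma on log2(FPKM + 1) with Benjamini-Hochberg adjustment over 14026 genes, 2 of the 10 fell and 0 rose at an adjusted p under 0.05, against 12.6% of all genes tested that fell and 20.9% that rose. The median log2 fold change over all genes tested was 0.05. With the further criterion of an absolute log2 fold change above 0.5, which 5.92% of all genes met, 0 of the 10 genes were differentially expressed. At an unadjusted p under 0.05 there were 3 of the 10, against 6270 of all 14026 genes tested. The Wilcoxon rank-sum test, adjusted in the same way, also called 2 lower and 0 higher, beside 1649 and 2476 of all genes tested.

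Ties between samples divided the table into 4 sets, each with 3 samples of both groups: samples 1 to 3, 4 to 6, 7 to 9 and 10 to 12. The spacing of the values of each regulator followed a model in which 1 group difference, the same for all sets, was set aside, the rest was shifted and scaled within each set, and the difference was added back. The levels of different sets had thus been brought together, the spread within them changed, and the group differences within a set moved away from or toward the shared one. The labels and methods name no such step and do not say whether the sets are batches of the experiment. Values below 0 made up 0.766% of the table, with 0 of them among the 10 regulators. Each sample summed to between 460715 and 515185 FPKM with ANG II and to between 482319 and 567727 FPKM without it. Read counts were not used here, so the depth behind the FPKM values is unknown.

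Levels per transcript length spanned from 125 ± 10.7 FPKM for Perm1 to 6.16 ± 0.454 FPKM for Nrf1 in the control group (mean ± SD, n = 12). Between them, the mean levels in the control group fell in the order Esrra, Ppargc1a, Ppard, Ppara, Tfam, Esrrb, Esrrg and Ppargc1b. The order in the hypertensive-LVH group was the same in all 10 places. Of the neighbours in this order, the ranges of mean ± SD in the control group overlapped between Ppargc1a and Ppard, Ppard and Ppara, Ppara and Tfam, Esrrg and Ppargc1b, and Ppargc1b and Nrf1, so those neighbours were not apart beyond their spread. Among the 3 ERR genes, Esrra was at 81.9 ± 8.65 FPKM, Esrrb at 13.6 ± 0.974 FPKM and Esrrg at 9.16 ± 1.46 FPKM in the control group (n = 12 each).

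**Figure D1:**
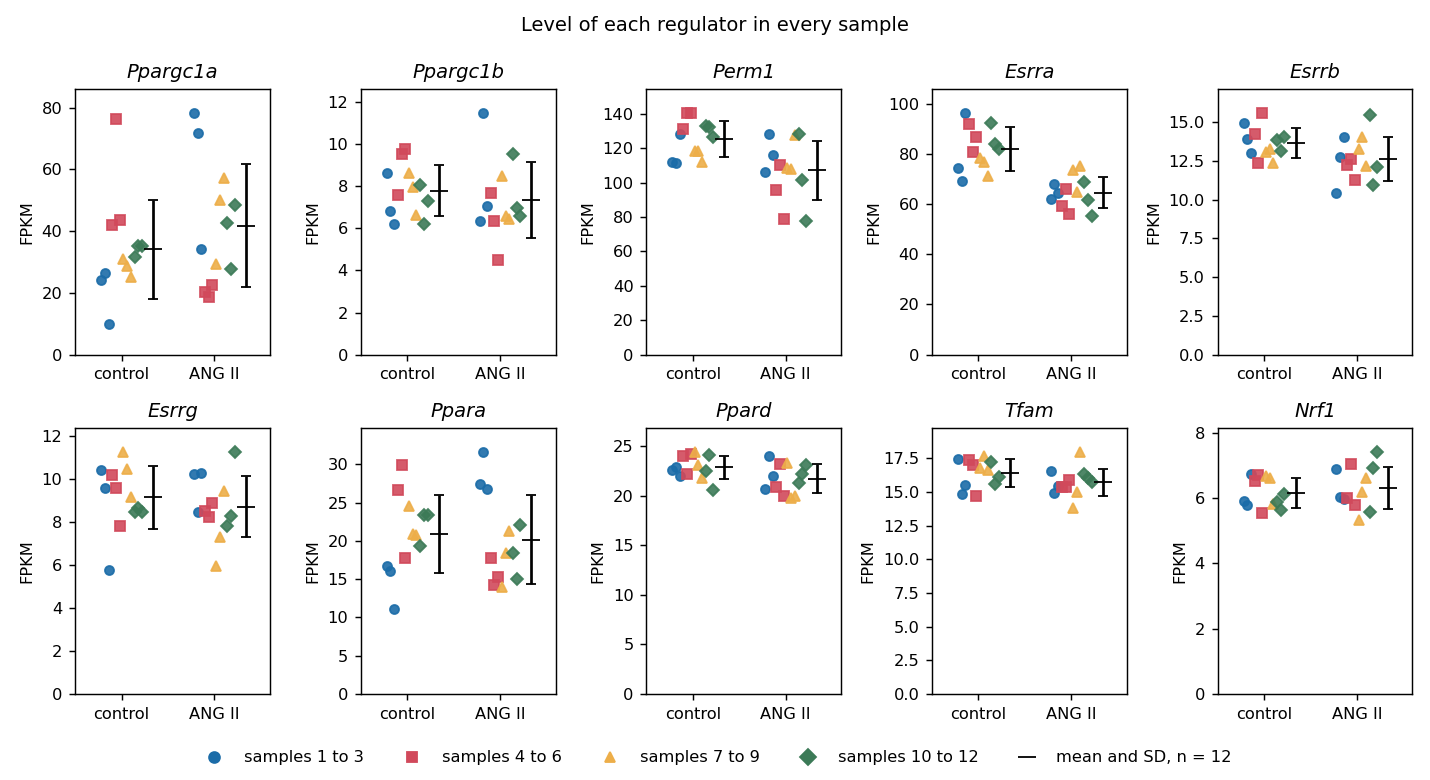
FPKM of the 10 regulators in the 12 control and 12 ANG II samples, 1 panel a gene, with the marker and colour of a point giving its set and the black bar the mean and SD of 12 samples. In the panel of Esrra, 10 of 12 ANG II samples lie under the lowest control sample, while in the panel of Ppargc1a the groups overlap and samples 1 to 3 and 4 to 6 change places between the groups.

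The upstream stretches of Esrra and Perm1, the pair that passed the test in the same direction, are shown so that the letters a nuclear receptor of the list binds can be looked for beside their values. A promoter was given by RefSeq (GRCm38.p6) for 9 of the 10 regulators, with Ppargc1b the one without. Both stretches are written 5′ to 3′ on the strand of the gene and end before the first base that either RefSeq or GENCODE vM21 counts to the transcript. Capitals mark AAGGTCA or its reverse complement, the core of the ERR response element. The Esrra stretch is chr19:6921814-6922058, minus strand, and the Perm1 stretch is chr4:156215677-156215867, plus strand.
Esrra: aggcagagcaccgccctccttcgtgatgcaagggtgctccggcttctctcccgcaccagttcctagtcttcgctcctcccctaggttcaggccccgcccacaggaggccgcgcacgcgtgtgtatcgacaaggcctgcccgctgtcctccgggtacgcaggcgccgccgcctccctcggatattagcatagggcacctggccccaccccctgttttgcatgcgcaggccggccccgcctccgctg
Perm1: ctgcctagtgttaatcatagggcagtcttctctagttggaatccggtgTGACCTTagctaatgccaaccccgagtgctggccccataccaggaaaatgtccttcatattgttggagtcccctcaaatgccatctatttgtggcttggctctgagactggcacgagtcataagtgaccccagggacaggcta

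Over the 250 bases upstream of the RefSeq start, on both strands, AAGGTCA was found in 4.08% of 32851 promoters and, among the 14 promoters of the regulators, in that of Perm1, where it begins 202 bases before the start on the reverse strand. The longer form TCAAGGTCA was in 0.387% of all promoters and in 0 of those 14. AGGTCA, the hexamer shared by many nuclear receptors, was in 14.0% of all promoters, and the 1 match among the regulators lies inside the AAGGTCA of Perm1. CGCATGCG, a core that NRF1 binds, was in 1.55% of all promoters and in that of Ppara, 30 bases before the start. The Esrra stretch was 68.6% G and C and held none of these motifs, while the Perm1 stretch was 50.8% G and C. A match of letters is a description of the sequence and not evidence of binding.

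Among the co-activators, Ppargc1a encodes PGC-1α, which responds to cold, exercise and fasting and is a central driver of mitochondrial gene expression. Its level in the hypertensive-LVH group was 18.5 FPKM at the lowest, 38.4 FPKM at the median and 78.3 FPKM at the highest of 12 samples. In the control group these were 9.95, 31.3 and 76.2 FPKM. The groups overlapped almost completely, with 1 of 12 samples of the hypertensive-LVH group above the highest control sample and 0 below the lowest. The log2 fold change of 0.27 (SE 0.26, 95% interval from -0.25 to 0.80) did not pass the test (adjusted p = 0.424, limma). Ppargc1a was also the most variable of the 10 genes, with a coefficient of variation of 47.6% in the hypertensive-LVH group and 46.8% in the control group, against 6.77% and 5.10% for Ppard.

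The pooled value of Ppargc1a stands for unlike differences in the 4 sets. In samples 1 to 3 its mean was 61.4 ± 23.7 FPKM in the hypertensive-LVH group and 20.1 ± 8.89 FPKM in the control group, and in samples 4 to 6 it was 20.5 ± 2.09 FPKM and 53.9 ± 19.4 FPKM (SD, n = 3 and 3 in each set). In both sets the groups did not overlap, in opposite directions. In samples 7 to 9 the means were 45.6 FPKM and 28.2 FPKM, and in samples 10 to 12 they were 39.5 FPKM and 34.1 FPKM, with overlap in both. The log2 fold changes over the 4 sets were 1.59, -1.30, 0.62 and 0.17. A test of whether the group difference was equal in the sets gave an adjusted p of 0.00426 (limma F test). This test was chosen after seeing the data and rests on the spread of the adjusted values. Without samples 4 to 6 of both groups, the log2 fold change of Ppargc1a was 0.79 (SE 0.22, adjusted p = 0.0169), and without samples 1 to 3 it was -0.17 (adjusted p = 0.60).

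**Figure D2:**
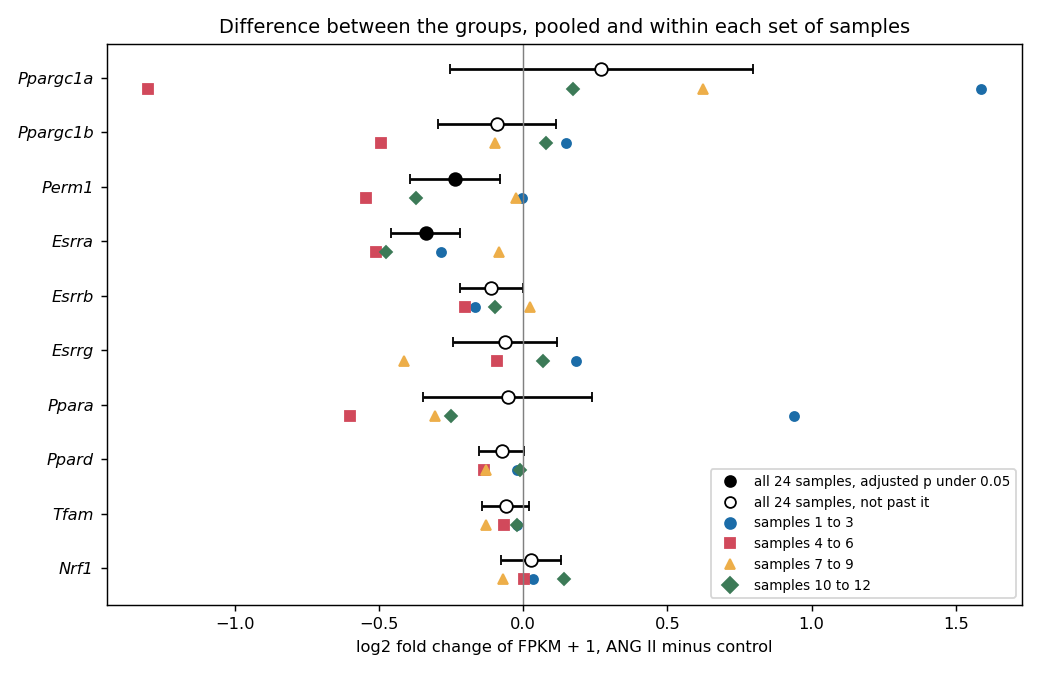
Log2 fold change of FPKM + 1, ANG II minus control, for the 10 regulators, with black circles for all 24 samples (filled where the adjusted p was under 0.05, bars for the 95% interval) and coloured markers for each set of 3 and 3 samples. The intervals of Esrra and Perm1 lie under 0 together with that of Esrrb, which did not pass the adjusted test, and the sets of Ppargc1a spread from -1.30 to 1.59.

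Ppargc1b encodes PGC-1β, the relative of PGC-1α that keeps up basal mitochondrial content. With ANG II it ranged from 4.49 to 11.5 FPKM with a median of 6.78 FPKM, and in the control group from 6.19 to 9.76 FPKM with a median of 7.79 FPKM. The highest and the lowest of all 24 samples were both in the hypertensive-LVH group, around an overlapping middle. Its log2 fold change was -0.09 (SE 0.10, 95% interval from -0.30 to 0.11, adjusted p = 0.4995).

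Perm1 takes part in the expression of mitochondrial and calcium-handling genes in muscle. In the hypertensive-LVH group it was 78.0 FPKM at the lowest, 108 FPKM at the median and 129 FPKM at the highest, and in the control group 112, 127 and 141 FPKM. Of 12 samples of the hypertensive-LVH group, 8 lay below the lowest control sample, while the other 4 lay among the control samples. The mean differed by -14.5%, with a log2 fold change of -0.24 (SE 0.08, adjusted p = 0.0184, limma). The difference lay mostly in 2 of the 4 sets: the mean difference was -42.6 FPKM in samples 4 to 6 and -28.0 FPKM in samples 10 to 12, but -0.361 FPKM in samples 1 to 3 and -1.67 FPKM in samples 7 to 9. The call was lost without samples 4 to 6 of both groups (log2 fold change -0.13, adjusted p = 0.246) and without samples 10 to 12 (-0.19, adjusted p = 0.0884). A test of whether the difference of Perm1 was equal in the 4 sets gave an adjusted p of 0.146.

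Of the nuclear receptors, Esrra showed the clearest difference between the groups. ERRα is abundant in heart and is the receptor through which PGC-1α acts on many respiratory chain genes. Its level in the hypertensive-LVH group was 55.0 FPKM at the lowest, 64.6 FPKM at the median and 75.0 FPKM at the highest, and in the control group it was 69.2, 81.4 and 96.3 FPKM. All 12 samples of the hypertensive-LVH group lay below the control median, and 10 of 12 lay below the lowest control sample. The mean was 64.5 ± 6.23 FPKM against 81.9 ± 8.65 FPKM (SD, n = 12), a difference of -21.2%. The log2 fold change was -0.34 (SE 0.06, 95% interval from -0.46 to -0.22, adjusted p = 0.000121, limma), under the limit of 0.5. The mean of Esrra was lower in the hypertensive-LVH group in all 4 sets, by -15.1, -25.9, -4.14 and -24.3 FPKM in turn, with overlap between the groups in samples 7 to 9 of the deposited values. A test of whether these differences were equal gave an adjusted p of 0.178.

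Esrrb and Esrrg encode the other ERR proteins, of which ERRγ, the product of Esrrg, is known to sustain oxidative metabolism in heart after birth. Esrrb ranged from 10.4 to 15.4 FPKM (median 12.4) with ANG II and from 12.3 to 15.6 FPKM (median 13.5) in control samples, with 6 of 12 samples below the lowest control sample. The log2 fold change of Esrrb was -0.11 (SE 0.05), with an unadjusted p of 0.0469 and an adjusted p of 0.107 by limma. Esrrg ranged from 5.96 to 11.3 FPKM (median 8.49) and from 5.77 to 11.3 FPKM (median 9.37), and the groups overlapped throughout. Its log2 fold change was -0.06 (SE 0.09, 95% interval from -0.24 to 0.12, adjusted p = 0.604).

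PPARα, the product of Ppara, is the main PPAR of fatty acid oxidation in heart and liver. In the hypertensive-LVH group Ppara lay between 13.9 and 31.6 FPKM (median 18.4), and in the control group between 11.1 and 29.9 FPKM (median 20.8). The ranges nearly coincided, and the log2 fold change was -0.05 (SE 0.14, 95% interval from -0.35 to 0.24, adjusted p = 0.790). As with Ppargc1a, the sets were unlike. In samples 1 to 3 Ppara was higher with ANG II, at 28.6 ± 2.60 FPKM against 14.6 ± 3.04 FPKM, and in samples 4 to 6 it was lower, at 15.7 ± 1.83 FPKM against 24.8 ± 6.27 FPKM (SD, n = 3 and 3), without overlap in either set. The log2 fold changes of Ppara over the sets were 0.94, -0.60, -0.31 and -0.25, and the test of equality gave an adjusted p of 0.00341 (limma F test). Without samples 1 to 3 of both groups Ppara was lower in the hypertensive-LVH group (log2 fold change -0.39, adjusted p = 0.00839), and without samples 4 to 6 the value was 0.13 (adjusted p = 0.598). Ppargc1a and Ppara were the 2 of the 10 genes for which this test passed an adjusted p of 0.05, against 7.49% of all genes tested.

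PPARβ/δ, the product of Ppard, is the broadly expressed PPAR. In the hypertensive-LVH group Ppard lay between 19.8 and 23.99 FPKM (median 21.7), and in the control group between 20.6 and 24.4 FPKM (median 22.8), with 3 of 12 samples below the lowest control sample. Its log2 fold change was -0.07 (SE 0.04, 95% interval from -0.15 to 0.0033, adjusted p = 0.128).

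Tfam encodes the factor that packages mitochondrial DNA and starts its transcription, and nuclear respiratory factor 1, the product of Nrf1, binds the promoters of Tfam and of many respiratory genes. With ANG II Tfam ranged from 13.8 to 18.0 FPKM (median 15.6) and without it from 14.7 to 17.7 FPKM (median 16.7), and 11 of 12 samples lay below the control median. The ranges overlapped, and the log2 fold change was -0.06 (SE 0.04, adjusted p = 0.246). Nrf1 ranged from 5.31 to 7.40 FPKM (median 6.11) and from 5.55 to 6.73 FPKM (median 6.01), with 4 of 12 samples above the highest control sample and 1 below the lowest. Its log2 fold change was 0.03 (SE 0.05, 95% interval from -0.08 to 0.13, adjusted p = 0.698).

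The differences within the sets were also computed from values with this adjustment undone, apart from the shift, which was possible for all 10 regulators. The group difference set aside was -14.4 FPKM for Esrra, -20.7 FPKM for Perm1, -0.0126 FPKM for Ppargc1a and 0.598 FPKM for Ppara. For Esrra these differences were -15.5, -25.9, -7.47 and -23.8 FPKM over the 4 sets, and for Perm1 4.76, -45.3, -7.79 and -29.0 FPKM. For Ppargc1a they were 64.8, -32.6, 10.2 and 3.84 FPKM, and for Ppara 22.0, -9.68, -2.22 and -2.47 FPKM. Over the 10 genes and 4 sets, 37 of 40 differences had the same sign before and after the adjustment. The 3 that turned were those of Perm1 and Tfam in samples 1 to 3 and of Esrrb in samples 7 to 9. Of Perm1, the deposited difference in samples 1 to 3 was -0.361 FPKM in place of 4.76 FPKM. The groups of Esrra overlapped in samples 1 to 3 and not in samples 7 to 9 before the adjustment, the reverse of the deposited values. The opposite directions of Ppargc1a and Ppara in samples 1 to 3 and 4 to 6 were thus present before it. The shift of each set could not be undone, so these values do not tell which group of a set stood apart from the other sets.

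An exact permutation test, two-sided, over all 160000 relabelings of samples within the sets was applied to the mean difference before the adjustment. For Esrra the mean difference was -18.1 FPKM with p = 5e-05, and for Perm1 it was -19.3 FPKM with p = 0.0111. For Ppard (-1.22 FPKM, exact p = 0.0536) and Esrrb (-1.19 FPKM, exact p = 0.0634) it was just outside the threshold of 0.05. The other 6 genes had an exact p of 0.189 for Tfam, 0.263 for Ppargc1a, 0.305 for Nrf1, 0.555 for Ppara, 0.699 for Ppargc1b and 0.870 for Esrrg. These p-values were not adjusted for the 10 genes.

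**Figure D3:**
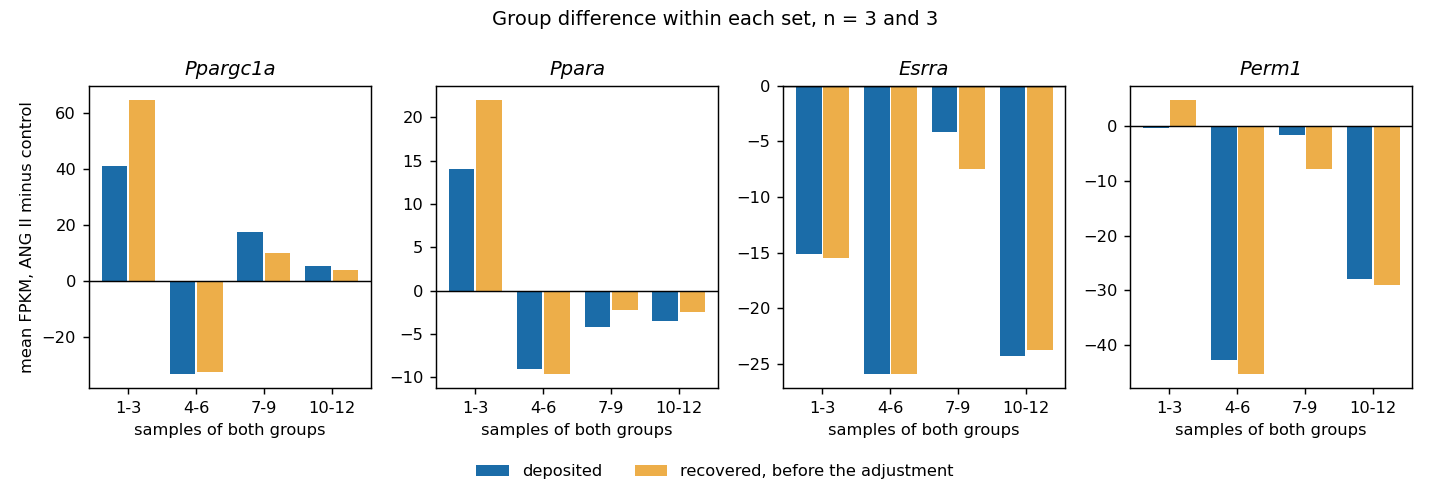
Mean FPKM of the ANG II samples minus that of the control samples within each set (n = 3 and 3) for Ppargc1a, Ppara, Esrra and Perm1, as deposited in blue and with the adjustment undone in yellow, each panel with its own vertical scale. Ppargc1a and Ppara are above 0 in samples 1 to 3 and below 0 in samples 4 to 6 with both kinds of value, and Esrra is below 0 in all 4 sets.

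The regulators were then related to each other across the 24 samples, with the mean of each group removed from log2(FPKM + 1) and permutation tests within the groups for 6 pairs. The permutations exchanged samples between the sets, although the adjustment ties the samples of a set together. Their p-values can thus be too small for all 6 pairs, and none was computed with the means of the sets removed. Ppargc1a and Ppara went together, with Pearson's r = 0.816 (permutation p = 2e-05, adjusted p = 9e-05) and Spearman's rho = 0.766 (permutation p = 7e-05, adjusted p = 0.00021). Esrra and Perm1 also went together, with r = 0.774 (permutation p = 3e-05, adjusted p = 9e-05) and rho = 0.810 (permutation p = 2e-05, adjusted p = 0.00012). Without the 2 samples whose value of the first gene was farthest from its median, r was 0.721 for Ppargc1a and Ppara and 0.816 for Esrra and Perm1. With the mean of each group in each set removed, r was 0.751 and 0.720 for these pairs, so both relations were also present within the sets. The samples share the depth and composition of their libraries, whose part in these relations was not tested.

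Of the other 4 pairs, Nrf1 with Tfam had r = 0.450 (permutation p = 0.0299, adjusted p = 0.0471) but rho = 0.329 (permutation p = 0.113, adjusted p = 0.170). Ppara with Pdk4, a kinase that shuts down pyruvate oxidation and a classical PPAR target, had r = 0.452 (permutation p = 0.0314, adjusted p = 0.0471) and rho = 0.426 (permutation p = 0.0446, adjusted p = 0.0891). Leaving out the 2 farthest samples gave r = 0.538 and 0.490 for these pairs, and 0.421 and 0.343 were left with the means of the sets removed. Ppargc1a with Esrrg had r = 0.404 (permutation p = 0.0567, adjusted p = 0.0680) and rho = 0.209 (permutation p = 0.342, adjusted p = 0.342), and r = 0.162 without the 2 farthest samples. With the means of the sets removed, this pair had r = 0.617 and rho = 0.556. Ppargc1a with Esrra, the co-activator with its best known ERR partner, had r = 0.0759 (permutation p = 0.729, adjusted p = 0.729) and rho = 0.215 (permutation p = 0.319, adjusted p = 0.342), and r = 0.362 without the 2 farthest samples. With the means of the sets removed, r for this last pair was -0.545, so its sign turned.

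**Figure D4:**
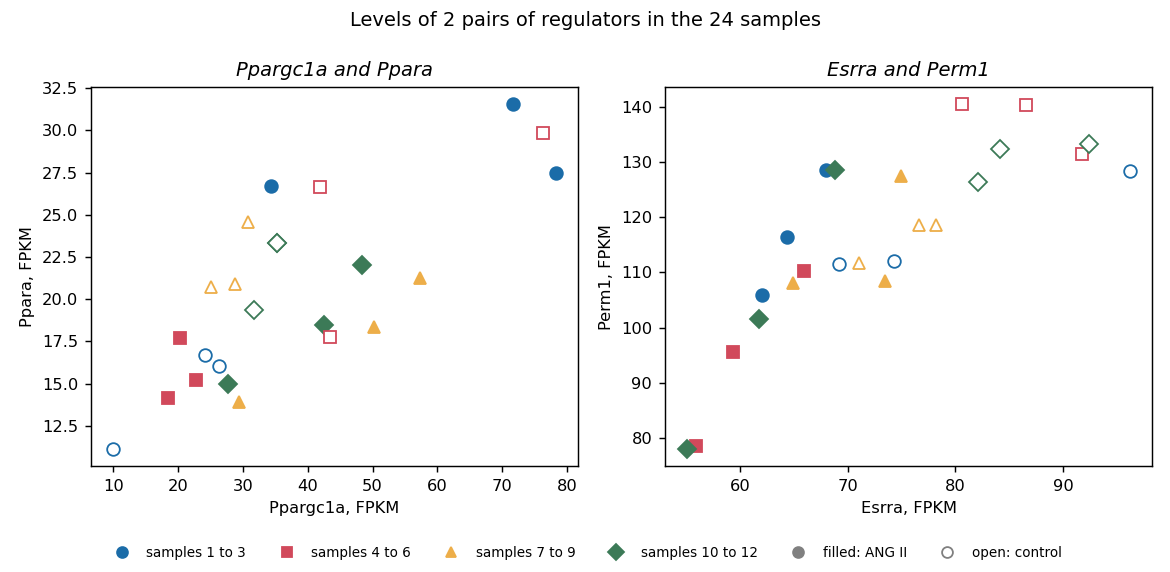
FPKM of Ppargc1a against Ppara (left) and of Esrra against Perm1 (right) in the 24 samples, filled for ANG II and open for control, with the marker and colour giving the set. The 3 highest levels of Ppargc1a and of Ppara are in the same 3 samples, from ANG II samples 1 to 3 and control samples 4 to 6, and the lowest levels of both Esrra and Perm1 are in ANG II samples.

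The genes whose pattern was most like that of each regulator were taken by Pearson's r over the 24 samples with the group means removed, among 11455 genes with a mean of at least 1 FPKM, as a description with no test. For Esrra these were Pank4 (r = 0.922), Chchd2 (0.909) and Cox5b (0.908), the last of which encodes a subunit of cytochrome c oxidase. For Perm1 they were Nt5dc3 (r = 0.932), Akap1 (0.906), which anchors signalling proteins at the outer mitochondrial membrane, and Smyd1 (0.885), a muscle methyltransferase. For Ppargc1a they were Nr4a3 (r = 0.874), an orphan nuclear receptor that is rapidly induced by cyclic AMP signals, Ppara (0.816) and Plin4 (0.798), a lipid droplet protein. For Ppara they were Dusp18 (r = 0.898), Rbbp6 (0.840) and Dhrs11 (0.831). With the mean of each group in each set removed, r with Ppargc1a was 0.653 for Nr4a3, 0.751 for Ppara and 0.554 for Plin4. On that scale r with Ppara was 0.850 for Dusp18, 0.810 for Rbbp6 and 0.677 for Dhrs11. For the genes named with Esrra and Perm1 it was 0.873 to 0.948.

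The most similar genes of Esrrg were Txlnb (r = 0.926), 5730455P16Rik (0.920) and Ppp2r3a (0.910), and those of Ppargc1b were Nudcd3 (0.833), Hk2 (0.747), the insulin-regulated hexokinase of muscle, and Map7d1 (0.740). For Tfam they were Ptgr2 (r = 0.730), Ptcd3 (0.729), a protein of the mitochondrial ribosome, and Tnfaip8 (0.719). For Ppard they were Tecpr1 (r = 0.750), Mybbp1a (0.689) and Hs6st1 (0.653), and for Esrrb Sgta (0.727), Epn1 (0.717) and Kcnk3 (0.696).

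Among 38 textbook ERR target genes, 34 were lower in the hypertensive-LVH group past an adjusted p of 0.05, 1 was higher and 3 did not pass (limma), against 12.6% lower and 20.9% higher of all genes tested. The median log2 fold change of the list was -0.32, beside 0.05 over all genes. Cox7a1, a heart and muscle subunit of cytochrome c oxidase, fell most, from 1656 ± 372 FPKM in the control group to 733 ± 220 FPKM (SD, n = 12), a log2 fold change of -1.21 (SE 0.17, adjusted p = 1.18e-05). Cox8b, another muscle subunit of the same enzyme, fell by 0.63 and Sdhb, the iron-sulfur subunit of succinate dehydrogenase, by 0.55 on the log2 scale. Casq2, the calcium-binding protein of the sarcoplasmic reticulum, was the 1 that rose (log2 fold change 0.14, adjusted p = 0.0437). In all 4 sets 33 of the 38 genes had a lower mean in the hypertensive-LVH group, against 12.8% of all genes tested, and the list median was -0.22, -0.53, -0.27 and -0.35 over the sets. Without samples 4 to 6 of both groups 25 of the list fell and 1 rose, beside 1633 and 1177 of all 14004 genes tested. Relative to the cardiomyocyte markers 23 fell and 1 rose, beside 513 and 8593 of all 14026 genes tested.

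Among 35 PPAR target genes in the table, 17 fell, 1 rose and 17 did not pass, or 48.6% lower and 2.86% higher against 12.6% and 20.9% of all genes tested. The median log2 fold change was -0.18. Relative to the mean log2 level of 12 cardiomyocyte markers, 9 fell and 8 rose, beside 513 and 8593 of all 14026 genes tested. Ucp3, an uncoupling protein of muscle mitochondria, fell by 0.74 (SE 0.24, adjusted p = 0.0215), Acaa2, the last enzyme of mitochondrial β-oxidation, by 0.61 (SE 0.09, adjusted p = 2.17e-05) and Mlycd, which degrades the inhibitor of fatty acid import malonyl-CoA, by 0.50 (SE 0.11, adjusted p = 0.00184) on the log2 scale. Ucp2, an uncoupling protein that macrophages also express, was the 1 that rose (log2 fold change 0.68, SE 0.16, adjusted p = 0.00192). Without samples 4 to 6 of both groups, 7 fell and 2 rose, beside 1633 and 1177 of all 14004 genes tested. Pdk4 did not pass the test (0.18, SE 0.34, adjusted p = 0.699), with sets of 0.91, -2.22, 1.26 and 0.78 that were unequal (adjusted p = 0.00231, limma F test).

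**Figure D5:**
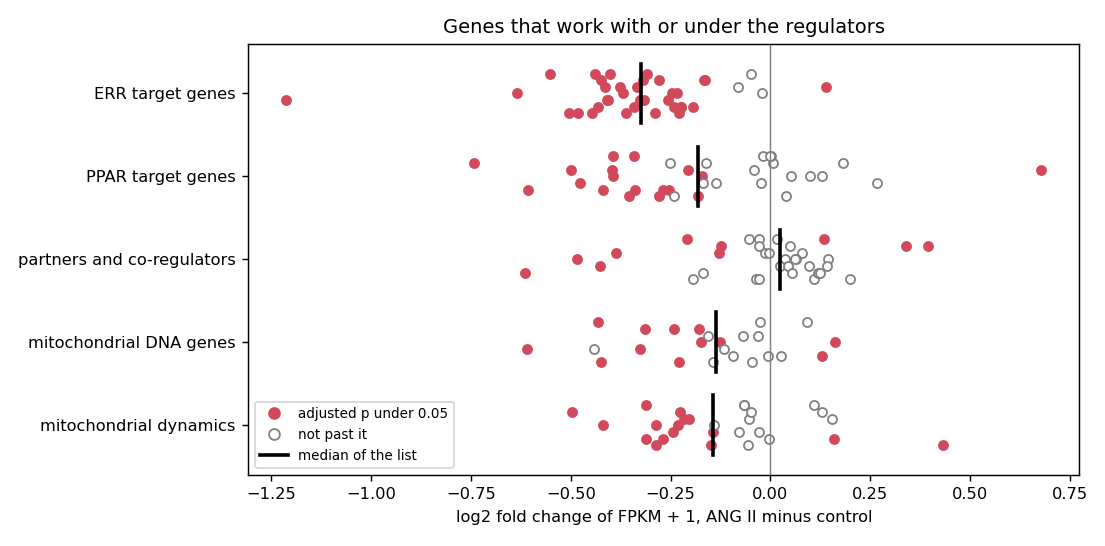
Log2 fold change of FPKM + 1, ANG II minus control, for every gene of 5 lists around the regulators, red where the adjusted p was under 0.05 and open where not, with a black line at the median of each list. The ERR target genes have their median at -0.32, the PPAR target genes at -0.18 and the partners at 0.02.

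Partners of the regulators were divided. Of 35 nuclear receptor partners, co-regulators and kinases, 7 fell, 3 rose and 25 did not pass, which is 8.57% higher and 20.0% lower, against 20.9% and 12.6% of all genes tested. The median log2 fold change was 0.02. Relative to the cardiomyocyte markers 4 fell and 19 rose, beside 513 and 8593 of all 14026 genes tested. Rxrg, the RXR of muscle that pairs with the PPAR proteins, fell from 51.2 ± 7.80 FPKM to 33.2 ± 6.42 FPKM (SD, n = 12), a log2 fold change of -0.62 (SE 0.10, adjusted p = 6.65e-05). Sirt3, the main deacetylase of mitochondria, fell by 0.49 and Prkab1, a subunit of AMP-activated kinase, by 0.43 on the log2 scale. Hif1a, the factor of the hypoxia response, rose by 0.39, Prkag2, another AMP-activated kinase subunit, by 0.34, and Yy1, a factor that PGC-1α binds, by 0.14. Without samples 4 to 6 of both groups, 1 of the list rose, beside 1177 of all 14004 genes tested.

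Genes of mitochondrial DNA transcription and upkeep stand around Tfam. Of 24 in the table, 10 fell, 2 rose and 12 did not pass, or 41.7% lower and 8.33% higher against 12.6% and 20.9% of all genes tested. The median log2 fold change was -0.13. Relative to the cardiomyocyte markers 3 fell and 5 rose, beside 513 and 8593 of all 14026 genes tested. Endog, a mitochondrial nuclease, fell by 0.61, Tfb1m, which modifies mitochondrial ribosomal RNA, by 0.43 and Dguok, which supplies deoxynucleotides, by 0.43 on the log2 scale, while Slc25a36 (0.16) and Dna2 (0.13) were the 2 that rose. Without samples 4 to 6 of both groups, 0 rose, beside 1177 of all 14004 genes tested.

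Markers of some cell types also differed between the groups. In bulk tissue, fewer cardiomyocytes, less RNA per cardiomyocyte and lower expression of the marker genes themselves cannot be told apart. Of 12 cardiomyocyte markers 6 fell, 1 rose and 5 did not pass, against 12.6% lower and 20.9% higher of all genes tested. Their summed level was 41880 to 60672 FPKM in the hypertensive-LVH group and 54235 to 69339 FPKM in the control group. All 10 macrophage markers rose and 6 of 10 fibroblast markers rose, against 20.9% of all genes tested. The summed levels were 347 to 1075 FPKM against 269 to 615 FPKM for macrophages and 810 to 2995 FPKM against 84.9 to 1184 FPKM for fibroblasts. The control mean of the fibroblast sum was 167 FPKM in samples 4 to 6 and 1099, 1005 and 1081 FPKM in the other sets. Col3a1 had a log2 fold change of 9.32 in samples 4 to 6 and of 0.37, 0.41 and 0.40 in the others. The part of the adjustment in this fibroblast difference was not tested. Of the other lists, 1 rose and 1 fell of 8 endothelial markers, 2 rose and 0 fell of 7 smooth muscle markers, 1 rose and 2 fell of 4 skeletal muscle markers, and 0 passed the test of 6 adipocyte and 4 atrial markers. For endothelial markers this was 12.5% in each direction and for smooth muscle markers 28.6% higher, against 20.9% higher and 12.6% lower of all genes tested. Within the sets, the atrial marker sum was 102 FPKM with ANG II against 970 FPKM in control samples 1 to 3, and 859 FPKM against -75.1 FPKM in samples 4 to 6. The adipocyte marker sum was 7.53 against 21.3 FPKM and 33.6 against -5.99 FPKM in the same sets. Sums below 0 are adjusted values and cannot be levels in tissue. These are the sets in which Ppargc1a, Ppara and Pdk4 differed in opposite directions, each time opposite to the atrial and adipocyte markers, and the part of these markers in those differences was not tested. The part of cell composition in the fall of Esrra and Perm1 was not tested.

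Relative to the mean log2 level of the cardiomyocyte markers in each sample, Esrra was lower by a log2 fold change of -0.15 (SE 0.05, adjusted p = 0.0140) and Perm1 did not pass (-0.05, adjusted p = 0.439). On that scale the median of all genes tested moved from 0.05 to 0.24, with 8593 of 14026 genes higher and 513 lower. Nrf1 passed in the higher direction (0.22, adjusted p = 0.0138). The cardiomyocyte marker sum was lower in the hypertensive-LVH group in each set, with means of 54977 and 60050 FPKM in samples 1 to 3, 46591 and 67587 FPKM in samples 4 to 6, 54017 and 61765 FPKM in samples 7 to 9 and 51257 and 64262 FPKM in samples 10 to 12. The fibroblast marker sum in samples 4 to 6 was 2378 FPKM against 167 FPKM, the widest of the 4 sets, where Esrra and Perm1 also had their largest differences. It was 1327 against 1099 FPKM in samples 1 to 3, with a Perm1 difference of -0.361 FPKM. In samples 7 to 9 it was 1472 against 1005 FPKM, with -1.67 FPKM for Perm1. In samples 10 to 12 it was 1394 against 1081 FPKM, with -28.0 FPKM for Perm1. A relation between this sum and the regulators was not tested.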

How the data were processed

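Left ventricular RNA of 24 mouse samples (12 ANG II, 12 control, grouped by their labels) was sequenced by the authors. The deposited values are FPKM per gene, and the deposited table was made with HISAT, Bowtie2 and RSEM according to the submitters' processing notes, with versions and genome build not given in the sources used here. The deposited FPKM had been adjusted gene by gene within 4 sets of samples (a shared group difference set aside, the rest shifted and scaled, the difference added back), found from ties (215 to 541 tied genes within a set, 0 across sets, at least 100 needed). The adjustment was undone, apart from the shift, from the spacing of values of 0.01 FPKM. Negative values were set to 0, log2(FPKM + 1) was fitted with limma 3.58.1 in R 4.3.3 with an intensity trend, two-sided, over genes with a mean of at least 0.1, and p-values were adjusted by Benjamini-Hochberg. Printed means, SDs and per-sample values are the deposited FPKM. Permutation tests were made in scipy 1.17.1, numpy 2.4.6 and pandas 2.3.3 (Python 3.11.15), with 100000 resamples for relations. Tested on simulated data for the comparison of the groups over 14026 genes, limma called 197 of 200 changed genes and 7 unchanged genes. The changed genes were moved by 1 on the log2 scale, more than any regulator differed between the groups. The simulated samples were independent, without sets or an adjustment within them. The simulation thus cannot tell how often smaller changes are found, or how often unchanged genes are called, in the adjusted values.

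The regulators and the gene lists (ERR targets, PPAR targets, partners, mitochondrial DNA genes, mitochondrial dynamics, and 8 cell type marker lists) were chosen with earlier results of these data known. All 10 regulators were named, of each pathway list the 3 genes with the largest and the 3 with the smallest log2 fold change past the threshold, and for each regulator the 3 genes with the highest r. For Nrf1 these genes are not reported here. Pdk4 was named as a member of a preset pair. Gene positions were read from GENCODE vM21. Because the unit is normalized, no count test was made. Alternatives were another pseudocount, other filters, scalings, tests and blocks, and samples left out. The two-sided p-values of limma set a group difference against the spread between samples, which the adjustment within the sets had changed.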

Additional observations from a re-analysis of the deposited data

Results flagged for a closer look

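The group difference of 2 regulators and of 1 PPAR target differed between the sets of samples by a test of the difference itself. That test was chosen after seeing the data. For Ppargc1a the adjusted p of limma's F test was 0.00426, for Ppara 0.00341 and for Pdk4 0.00231. Samples 1 to 3 and samples 4 to 6 went in opposite directions for all 3 genes. The sets were found from ties in the values and are not groups of the study, and what set them apart was not tested.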

How the results depend on the processing

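Across the alternatives other than leaving out 1 sample, 220 of 280 values kept their direction and their side of the threshold or, for counts, stayed within 1.5 times the reported count. Esrra stayed lower past an adjusted p of 0.05 in every one of them. Leaving out each of the 24 samples in turn gave log2 fold changes of -0.36 to -0.32 for Esrra, -0.26 to -0.20 for Perm1, 0.13 to 0.39 for Ppargc1a, -0.15 to -0.039 for Ppargc1b, -0.14 to -0.088 for Esrrb (past the threshold without ANG II sample 10, adjusted p = 0.0347), -0.11 to -0.020 for Esrrg, -0.13 to -0.0051 for Ppara, -0.087 to -0.063 for Ppard, -0.076 to -0.044 for Tfam and 0.0084 to 0.046 for Nrf1. The count of regulators past the threshold was 2 to 3 lower and 0 higher, and 0 passed both criteria. Over the 14005 to 14045 genes tested in these fits, 1597 to 1824 were lower, 2376 to 3336 higher and 715 to 979 past both criteria.

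For the replicate numbers of the labels, the correlation of same-numbered samples across the groups was -0.508 to -0.00458, over 0.1 in 0 of 12 pairs. The adjustment had brought the levels of the sets together, so a high group in a set goes with a low other group. Such correlations are pushed below 0, so they cannot tell whether the numbers pair the samples. With the number as a replicate block, the adjusted p of Perm1 was 0.0628 (log2 fold change -0.24), 1 regulator was lower, and 0 ERR targets, 1 mitochondrial DNA gene and 1 dynamics gene were higher. With a term for the set, 0, 1 and 1 of these were higher. Of all 14026 genes tested, 1586 were higher and 1238 lower with the block, and 2378 and 1533 with the term for the set.

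Quantile normalization gave 5 regulators lower, with Esrrb at -0.18, Ppard at -0.12 and Tfam at -0.12 now past the threshold, Nrf1 at -0.065, and 2 PPAR targets, 0 mitochondrial DNA genes and 1 dynamics gene higher. Median-ratio scaling gave Nrf1 at -0.015 and 0 ERR targets, 0 mitochondrial DNA genes and 1 dynamics gene higher. A pseudocount of 0.1 gave 1 mitochondrial DNA gene higher, beside 2890 of all 14026 genes tested. Without samples 1 to 3 of both groups, Ppargc1a was at -0.17 and Ppara at -0.39. Without samples 4 to 6, Ppargc1a was at 0.79, Ppargc1b at 0.043, Ppara at 0.13 and Perm1 at -0.13, with 1 regulator higher, 1 lower and 1 past both criteria, and 1 partner, 2 PPAR targets and 0 mitochondrial DNA genes higher and 7 PPAR targets lower. Of all 14004 genes tested in that fit, 1177 were higher, 1633 lower and 553 past both criteria. Without samples 7 to 9, Esrrg was at 0.054 and Ppara at 0.030. Without samples 10 to 12, Ppara was at 0.012, Perm1 at -0.19 and Nrf1 at -0.011, with 1 regulator lower. Of all 14038 genes tested in that last fit, 1325 were lower and 2222 higher.

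Relative to the cardiomyocyte markers, an alternative chosen after seeing the data, as was the test of equal differences over the sets, Ppargc1b was at 0.10, Esrrb at 0.079, Esrrg at 0.13, Ppara at 0.14, Ppard at 0.11, Tfam at 0.13, Perm1 at -0.048 and Nrf1 at 0.22, with 1 regulator higher and 1 lower. On that scale 1 ERR target was higher and 23 lower, 19 partners were higher and 4 lower, 8 and 9 PPAR targets, 5 and 3 mitochondrial DNA genes, and 9 and 4 dynamics genes. Of all 14026 genes tested, 8593 were higher and 513 lower there. Before the adjustment within the sets, the mean difference of Ppara was 1.91 FPKM, and with the means of the sets removed r of Ppargc1a and Esrra was -0.545. The causes were not tested. The split of all calls was 2928 higher and 1769 lower, 2410 and 2230 under median-ratio scaling and 1922 and 2930 under quantile normalization. The depth behind FPKM is unknown and limits the low genes most, and the adjustment within the sets changed the spread that every test rests on.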

Other observations

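Genes of mitochondrial fusion, fission, import and turnover were described by a list of 29 genes, of which 28 were in the table. In the hypertensive-LVH group 14 fell and 2 rose past an adjusted p of 0.05 (limma), against 12.6% and 20.9% of all genes tested, and the median log2 fold change was -0.14. Relative to the cardiomyocyte markers, of which 6 of 12 fell, the split was 4 lower and 9 higher. Over all 14026 genes tested it was 513 lower and 8593 higher. Pink1, the kinase that marks damaged mitochondria for removal, fell from 303 ± 32.5 FPKM to 215 ± 26.7 FPKM (SD, n = 12), a log2 fold change of -0.50 (SE 0.07, adjusted p = 1.07e-05). Clpp, a protease of the mitochondrial matrix, fell by 0.42 and Timm23, the channel of the inner membrane import complex, by 0.31 on the log2 scale. The genes that rose were Bnip3 (log2 fold change 0.43, adjusted p = 0.000766) and Bnip3l (0.16, adjusted p = 0.0439), receptors that tie mitochondria to the autophagy machinery. In all 4 sets 15 of the 28 genes had a lower mean in the hypertensive-LVH group, against 12.8% of all genes tested.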
